A study of Homo sapiens with 30 samples.

Results

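The 34 genes described here are expressed in the mature kidney epithelium and in podocytes, and were taken as a fixed list of gene symbols out of 19222 protein-coding genes on chromosomes 1 to 22 (hg19). The list runs along the nephron, with 3 podocyte genes, 12 of the proximal tubule, 3 of the thick ascending limb, 4 of the distal convoluted and connecting tubule, 5 of collecting duct principal cells, 5 of intercalated cells and 2 found along the tubule. A peak was assigned to a gene when it overlapped the GENCODE gene span extended by 5 kb on each side, and was called a promoter peak when it lay within 1 kb of the start site of the canonical transcript. Coverage is the share of the gene span that lies under peaks. Fragments at the summit are the ChIP fragments over the highest base of a peak, fold enrichment is their ratio to local input, and −log10 q is the deposited significance of the peak, so that larger values mark stronger peaks.

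Both repressive marks, H3K27me3 and H3K9me3, were profiled by ChIP-seq in HEK293T, a line from human embryonic kidney with the large T antigen of SV40, 48 h after antisense oligonucleotides (ASOs), which lower the amount of a target RNA, had been transfected. H3K27me3 was measured with a negative control ASO (NC), upon depletion of LINC00641 (ΔLINC00641, 1 ASO named in the track line) and upon depletion of SETD5-AS1 (ΔSETD5-AS1, 1 ASO). H3K9me3 was measured with NC and upon depletion of LINC00662 (ΔLINC00662, a mix of ASOs). All groups were the same line, and NC cells also received an ASO. The replicates, 3 in each group, were merged before peaks were called, so each of the 5 groups is a single list of 60273 to 102921 peaks without an error between replicates. The comparisons rest on these merged lists alone, which allow no test between groups. Both H3K27me3 comparisons share the NC list. The lists hold no RNA measurement, so neither the expression of the 34 genes nor the depletion of the targeted RNAs was analysed here.

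In the nephron, podocytes filter the blood, the proximal tubule recovers most solutes, and the later segments adjust salt, water and acid under hormonal control. Each segment uses its own transporters, which are switched on late in kidney development. H3K27me3 is deposited by Polycomb repressive complex 2 and is known at silent developmental and cell type specific genes, often over CpG-rich start sites, whereas H3K9me3 marks heterochromatin, repeats and clusters of zinc finger genes.

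H3K27me3 was found at 12 of the 34 kidney genes in NC (35.3%, Wilson 95% interval 21.5 to 52.1%), against 14.6% of all protein-coding genes. In ΔLINC00641 it was found at 13 genes (background 14.6%) and in ΔSETD5-AS1 also at 13 (14.9%). A promoter peak was present at 6 genes in NC (17.6%, interval 8.35 to 33.5%), at 7 in ΔLINC00641 and at 5 in ΔSETD5-AS1, where the backgrounds were 7.09%, 7.50% and 6.87%. Among peaks with −log10 q ≥ 5 the promoter count in NC was 3, without UMOD, KL and SLC26A4. The share of all genes at that limit is not given here, so this count has no background. With all peaks, the H3K27me3 intervals lay above the background except that of promoter peaks in ΔSETD5-AS1 (6.45 to 30.1%). H3K9me3 was found at 11 genes in NC (32.4%, interval 19.1 to 49.2%), against 38.1% of all genes, and at 6 in ΔLINC00662 (17.6%, interval 8.35 to 33.5%), against 32.4%, and both intervals included the background. No kidney gene had an H3K9me3 promoter peak in either list, where the backgrounds were 5.08% and 4.10% and the interval for 0 of 34 reached 10.2%. All intervals cover counting error only. The 34 genes were chosen with earlier results of these data known, so an interval above the background is no test of enrichment.

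The genes with an H3K27me3 promoter peak were UMOD, CALB1, KL, SCNN1B and SCNN1G in all 3 lists. SLC26A4 had one in NC and ΔLINC00641, and PODXL in ΔLINC00641 alone. These peaks lay within 1 kb of the start but need not cover it. Those of KL, CALB1 and PODXL, and those of SCNN1G in NC, lay wholly outside the 300-base window described next. The start sites of these genes carried very different sequences. The 300 bases from 250 before to 50 after the start are printed for KL, SCNN1B, UMOD and SLC26A4, from the hg19 reference and in the direction of transcription, with every CpG dinucleotide in capitals, to show how CpG density ranges from UMOD to KL. The windows are those of KL (chr13:33590311-33590610, plus strand), SCNN1B (chr16:23313373-23313672, plus strand), UMOD (chr16:20363988-20364287, minus strand) and SLC26A4 (chr7:107301023-107301322, plus strand).
KL: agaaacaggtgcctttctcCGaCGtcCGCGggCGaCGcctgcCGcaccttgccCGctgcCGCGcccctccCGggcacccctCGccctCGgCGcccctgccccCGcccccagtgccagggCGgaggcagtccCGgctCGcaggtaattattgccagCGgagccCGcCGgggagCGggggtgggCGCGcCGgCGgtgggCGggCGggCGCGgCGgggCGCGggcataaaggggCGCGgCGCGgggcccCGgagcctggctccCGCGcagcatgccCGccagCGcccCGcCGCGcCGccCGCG
SCNN1B: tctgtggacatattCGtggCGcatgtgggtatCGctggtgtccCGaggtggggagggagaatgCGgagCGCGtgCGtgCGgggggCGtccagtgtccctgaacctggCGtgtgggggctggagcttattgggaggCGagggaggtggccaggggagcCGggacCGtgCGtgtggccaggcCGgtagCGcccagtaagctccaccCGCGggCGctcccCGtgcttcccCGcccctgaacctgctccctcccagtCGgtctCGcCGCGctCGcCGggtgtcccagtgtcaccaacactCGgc
UMOD: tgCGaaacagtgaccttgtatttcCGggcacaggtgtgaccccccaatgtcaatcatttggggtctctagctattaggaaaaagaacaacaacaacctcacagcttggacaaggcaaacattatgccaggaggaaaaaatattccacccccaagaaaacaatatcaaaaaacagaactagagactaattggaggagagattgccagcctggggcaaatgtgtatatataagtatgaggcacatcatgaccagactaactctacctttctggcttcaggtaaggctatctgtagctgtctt
SLC26A4: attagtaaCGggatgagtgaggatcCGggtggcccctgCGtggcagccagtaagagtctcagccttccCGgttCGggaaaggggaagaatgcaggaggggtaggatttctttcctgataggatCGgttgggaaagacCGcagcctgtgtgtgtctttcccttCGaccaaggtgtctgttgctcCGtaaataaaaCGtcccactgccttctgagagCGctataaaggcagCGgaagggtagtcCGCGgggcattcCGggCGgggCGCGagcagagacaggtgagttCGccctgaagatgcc
The window of KL held 48 CpGs, that of SCNN1B 29 and that of SLC26A4 19, whereas UMOD held 2. The median was 29 over the 7 genes with a promoter peak in any list, 7 over the other 27 and 23 over all 19222.

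Grouped by CpG content, 7 kidney genes had 20 or more CpGs in this window, and 3 of them (42.9%, interval 15.8 to 74.9%) had an H3K27me3 promoter peak in NC, against 6.12% of the 11284 genes of that class. In ΔLINC00641 the count was 4 of 7, where all genes of the class reached 6.89%. The 3 CpG-rich genes without one in any list were WT1, LRP2 and AQP3. Of the 10 kidney genes with 10 to 19 CpGs, CALB1 and SLC26A4 had a promoter peak in NC (20%, interval 5.67 to 51.0%), against 7.38% of that class. Among the 17 kidney genes with under 10 CpGs only UMOD had a promoter peak in each list (5.88% in NC, interval 1.05 to 26.98%), against 9.14% of that class.

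**Figure D1:**
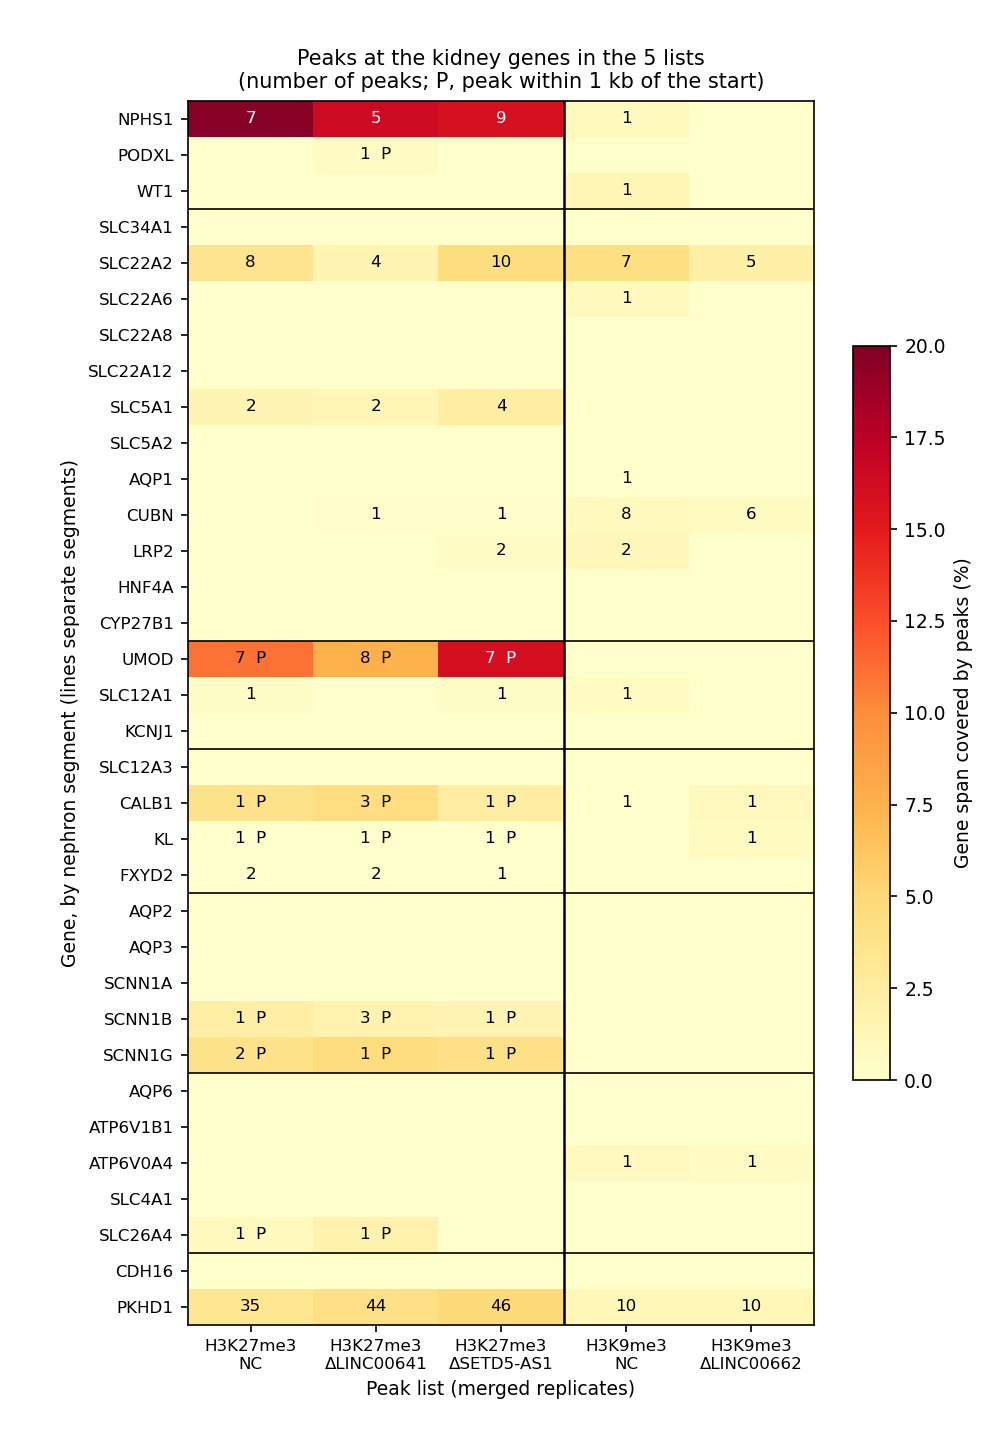
Rows are the 34 kidney genes grouped by nephron segment and columns are the 5 peak lists. Colour gives the percent of the gene span covered by peaks, numbers give the peaks in the span plus 5 kb on each side, and P marks a peak within 1 kb of the start site. NPHS1 and UMOD are the darkest rows for H3K27me3, and 15 rows are empty in all 5 lists.

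Gene length was also unequal. None of the 10 kidney genes under 20 kb had an H3K27me3 peak in any of the 3 lists (interval in NC 0 to 27.8%), where 12.9% of all genes of that length did in NC. Of the 15 genes from 20 to 60 kb, 7 had one in NC (46.7%, interval 24.8 to 69.9%), against 10.6% of all genes of that length. Of the 9 genes over 60 kb, 5 had one (55.6%, interval 26.7 to 81.1%), against 20.9%. For H3K9me3 in NC the kidney genes lay near all genes of their length, at 1 of 10 against 16.2%, 4 of 15 against 33.5% and 6 of 9 against 74.0%.

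**Figure D2:**
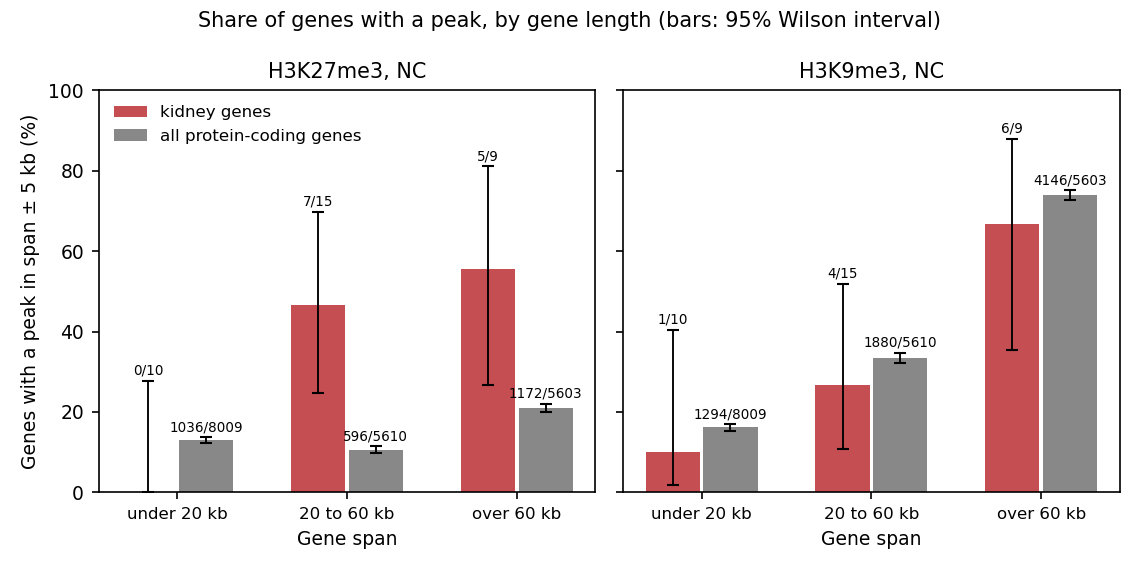
Bars give the percent of genes with a peak in the span plus 5 kb in the NC lists, for the kidney genes (red) and all protein-coding genes (grey) in 3 classes of gene span, with Wilson 95% intervals and counts above the bars. The H3K27me3 share of the kidney genes is above that of all genes in the classes from 20 to 60 kb and over 60 kb, and 0 of 10 below 20 kb.

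Among podocyte genes, NPHS1 (chr19:36316274-36360189, minus strand) encodes nephrin of the slit diaphragm. It had the largest H3K27me3 coverage of the 34 genes in NC and ΔLINC00641, while UMOD had the largest in ΔSETD5-AS1. NPHS1 coverage was 19.7% of the span in NC with 7 peaks, 16.5% in ΔLINC00641 with 5 and 15.8% in ΔSETD5-AS1 with 9. These values lay above 97.5%, 97.3% and 97.3% of all genes. The peaks formed a patch inside the transcribed part, and the one nearest to the start site was 6047 bp away in NC, 5988 bp in ΔLINC00641 and 6134 bp in ΔSETD5-AS1, so none was a promoter peak. The strongest NC peak by q-value, chr19:36321624-36323599, had a fold enrichment of 4.95 over input and 31 fragments at its summit. The strongest peak of ΔLINC00641, chr19:36336201-36337418, had 38 fragments and a fold enrichment of 4.87, and that of ΔSETD5-AS1, chr19:36324204-36326678, had 29 and 4.54. No H3K27me3 peak lay within 500 kb on either side of the NPHS1 window in NC, and 3 and 4 did in the knockdown lists. H3K9me3 peaks were frequent in the same flanks, with 68 in NC, where the median gene had 20. A single H3K9me3 peak lay in NPHS1 in NC, on a coding exon, with 24 fragments, and none in ΔLINC00662.

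PODXL (chr7:131185021-131242976, minus strand), encoding the sialomucin podocalyxin that coats foot processes, had no H3K27me3 peak in NC or ΔSETD5-AS1, where the nearest lay 129677 and 128494 bp from its start. In ΔLINC00641 a promoter peak of 351 bp at chr7:131240557-131240907 had 33 fragments (Poisson 95% interval 22.7 to 46.3) and a fold enrichment of 3.73. WT1, the transcription factor of podocytes and their progenitors, had no H3K27me3 peak in any list, and the nearest in NC was 988051 bp from the start. In the H3K9me3 NC list WT1 had 1 intronic peak, 2187 bp into the gene at its summit, with 29 fragments and a fold enrichment of 2.25, which counted as a promoter peak only under a limit of 2.5 kb or when all coding start sites were used.

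In the proximal tubule, H3K27me3 was found at 2 of 12 genes in NC, at 3 with ΔLINC00641 and at 4 with ΔSETD5-AS1, and at no promoter. The shares were 16.7%, 25% and 33.3%, against 14.6%, 14.6% and 14.9% of all genes, and each Wilson interval held its background. SLC22A2 (chr6:160592093-160698670, minus strand), the basolateral organic cation transporter, had 8, 4 and 10 peaks, which covered 3.54%, 1.54% and 4.46% of its span. In NC 6 of the 8 lay beyond the end of the canonical transcript, in introns of the longer annotated span, and the strongest of them by q-value, chr6:160621818-160622262, had 26 fragments. Under the canonical transcript alone, SLC22A2 had no H3K27me3 peak in ΔLINC00641. Its surroundings were rich in H3K27me3, with 118, 89 and 109 peaks in the 500 kb on each side, where the median gene had 3, 3 and 4. SLC22A2 was also the kidney gene with the largest H3K9me3 coverage, 4.27% in NC with 7 peaks and 2.06% in ΔLINC00662 with 5. Of its 8 H3K27me3 peaks in NC, 1 touched an H3K9me3 peak, over 623 bp, and a ΔSETD5-AS1 peak at chr6:160639057-160640050 lay on the NC H3K9me3 peak at chr6:160639103-160640019.

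SLC5A1 (chr22:32439248-32509016), a sodium-glucose cotransporter of the late proximal tubule, had H3K27me3 in every list, with 2 peaks in NC and ΔLINC00641 and 4 in ΔSETD5-AS1. They covered 1.45%, 1.28% and 2.49% of the span, and all lay at least 44926 bp from the start. No NC peak of SLC5A1 overlapped a peak of either knockdown list. CUBN and LRP2, the endocytic receptors cubilin and megalin that recover filtered proteins, had no H3K27me3 in NC. CUBN had 1 peak in each knockdown list, at overlapping positions in an intron, with the summit 10363 bp into the gene in ΔLINC00641 (15 fragments, −log10 q of 2.11) and 10278 bp in ΔSETD5-AS1 (18 fragments, −log10 q of 1.38). LRP2 had 2 intronic peaks in ΔSETD5-AS1 alone, with 17 and 19 fragments. The first of them, chr2:170107060-170107453, lay inside the NC H3K9me3 peak chr2:170106299-170107832.

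H3K9me3 in the proximal tubule genes was found at 5 of 12 in NC (SLC22A2, CUBN, LRP2, SLC22A6 and AQP1) and at 2 of 12 in ΔLINC00662 (SLC22A2 and CUBN). The shares were 41.7% and 16.7%, against 38.1% and 32.4% of all genes. CUBN had 8 peaks in NC and 6 in ΔLINC00662, which covered 0.856% and 0.630% of its 306 kb. The strongest lay just downstream of the gene, at chr10:16863744-16865488 in NC with 50 fragments and at chr10:16863856-16865410 in ΔLINC00662 with 40, and the 7 other NC peaks of CUBN were intronic. H3K9me3 covered 1.09% of LRP2 with 2 peaks in NC, the stronger with 28 fragments, and had none in ΔLINC00662. SLC22A6, the organic anion transporter, had a single intronic NC peak of 24 fragments, which lay outside its canonical transcript. AQP1, the water channel, had 1 peak of 26 fragments downstream of the gene.

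The other 6 proximal tubule genes had no peak of either mark in any list. These were the phosphate cotransporter SLC34A1, the organic anion transporter SLC22A8, the urate exchanger SLC22A12, the glucose cotransporter SLC5A2, the transcription factor HNF4A and the vitamin D activating enzyme CYP27B1.

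**Figure D3:**
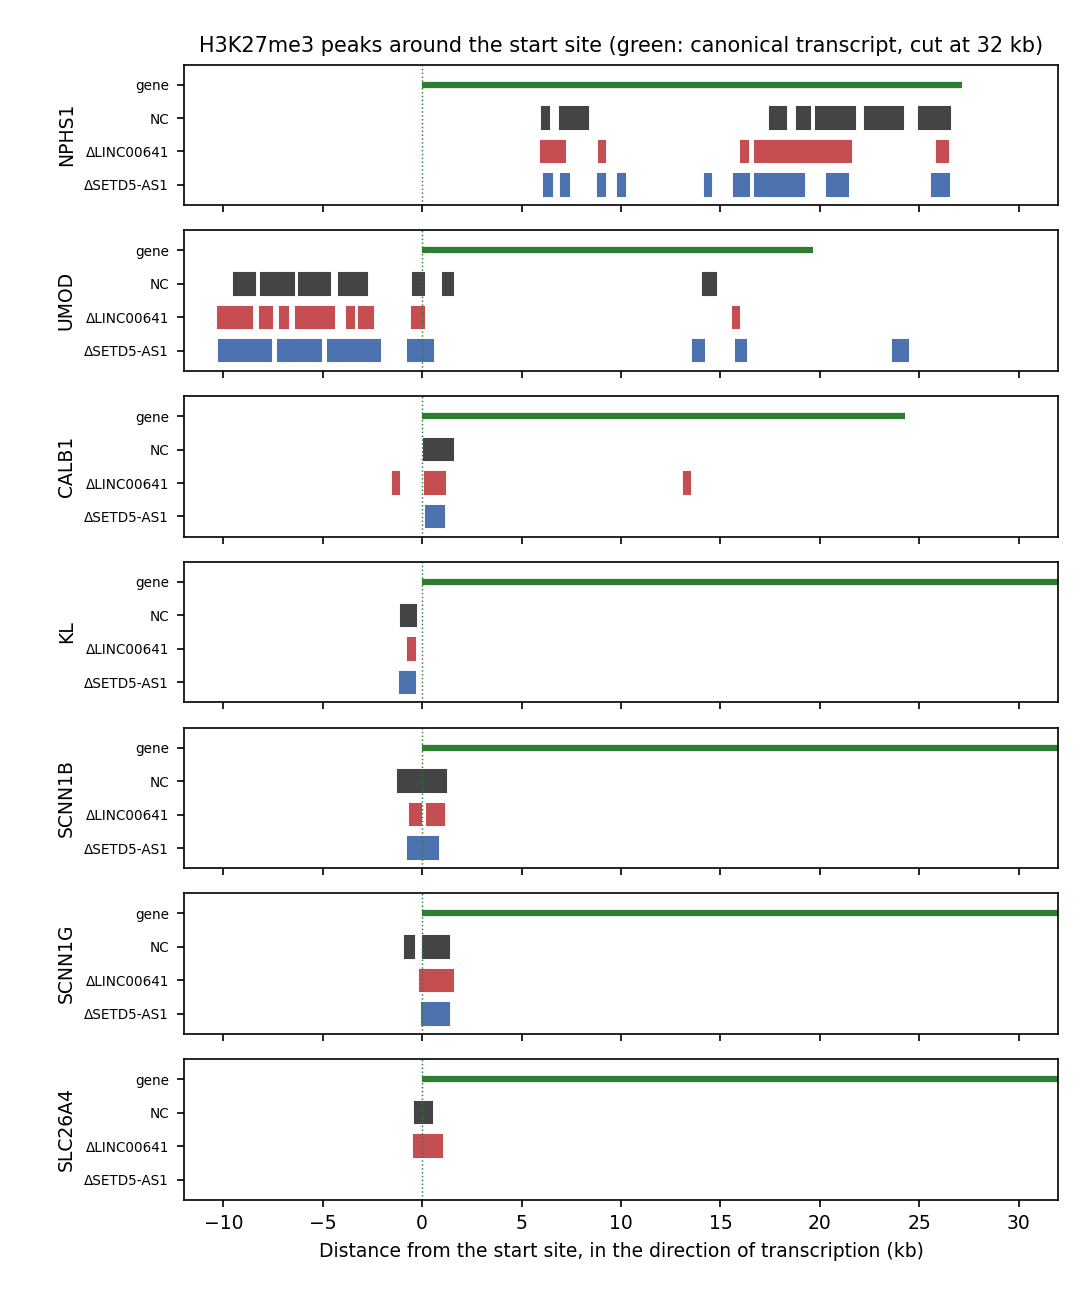
Each panel shows 1 gene from 12 kb before to 32 kb after its start site, with the canonical transcript in green and the H3K27me3 peaks of NC (grey), ΔLINC00641 (red) and ΔSETD5-AS1 (blue) as boxes drawn to scale. The NPHS1 peaks begin about 6 kb inside the gene, UMOD has further peaks upstream, and the other 5 genes have peaks at or within 1 kb of the start.

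In the thick ascending limb, UMOD (chr16:20344373-20367623, minus strand), which encodes uromodulin, the most abundant protein of normal urine, had H3K27me3 in all 3 lists. It had 7, 8 and 7 peaks in the lists of NC, ΔLINC00641 and ΔSETD5-AS1, covering 11.1%, 7.51% and 16.0% of its span. The promoter peak spanned chr16:20363926-20364509 in NC, chr16:20363946-20364551 in ΔLINC00641 and chr16:20363500-20364739 in ΔSETD5-AS1, so that 96.6% and 100% of the NC peak was met in the knockdown lists. Its summit held 16 fragments in NC (interval 9.15 to 26.0), 22 in ΔLINC00641 (13.8 to 33.3) and 24 in ΔSETD5-AS1 (15.4 to 35.7), with fold enrichments of 3.36, 4.80 and 4.60. These intervals overlapped. The strongest NC peak was not at the start but across the upstream edge of the annotated span, at chr16:20366794-20368208, with 26 fragments. Of the 7 NC peaks 3 lay wholly upstream of the span, and 2 of these had their summit inside the neighbouring gene PDILT. UMOD lay in a stretch dense in H3K27me3, with 156, 149 and 156 peaks in the flanking 500 kb on each side, where H3K9me3 had 30 in NC and 28 in ΔLINC00662. No H3K9me3 peak lay at UMOD itself.

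SLC12A1, the apical sodium, potassium and chloride cotransporter, had 1 H3K27me3 peak in NC (17 fragments) and 1 in ΔSETD5-AS1 (13 fragments), in different places and both before the canonical start. The NC peak was inside CTXN2 and the other lay at the start of CTXN2, and with the canonical transcript in place of the whole span neither was counted. SLC12A1 also had 1 intronic H3K9me3 peak in NC, of 15 fragments. KCNJ1, the apical potassium channel, had none of either mark, although an H3K27me3 peak lay 16.4 kb from its start in ΔSETD5-AS1.

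Of the distal convoluted and connecting tubule genes, 3 of 4 had H3K27me3 in each list, FXYD2 among them through its flank alone. The share of all genes was 14.6% in NC and ΔLINC00641 and 14.9% in ΔSETD5-AS1. KL (chr13:33590561-33640280), which encodes klotho, a coreceptor for a phosphate-regulating hormone, had 1 peak per list, just upstream of its start. The peak was chr13:33589480-33590269 in NC, chr13:33589840-33590213 in ΔLINC00641 and chr13:33589437-33590200 in ΔSETD5-AS1. It ended 292, 348 and 361 bp before the start site, so that the gene span itself had no coverage. The summit held 20 fragments in NC (interval 12.2 to 30.9), 30 in ΔLINC00641 (20.2 to 42.8) and 25 in ΔSETD5-AS1 (16.2 to 36.9), and the fold enrichments of 3.11, 3.11 and 2.97 were close. No other H3K27me3 peak lay within 500 kb of the KL window in any list.

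CALB1 (chromosome 8, minus strand), the calcium-binding protein calbindin, had 1 peak in NC and ΔSETD5-AS1 and 3 in ΔLINC00641, and in the order NC, ΔLINC00641, ΔSETD5-AS1 they covered 3.87%, 4.35% and 2.45% of the gene. The promoter peak began 110 bp downstream of the start in NC, 120 bp in ΔLINC00641 and 210 bp in ΔSETD5-AS1. It was 1426, 1033 and 902 bp wide, and both knockdown peaks lay entirely within the NC peak. The summit held 26 fragments in NC (interval 17.0 to 38.1), 29 in ΔLINC00641 (19.4 to 41.6) and 30 in ΔSETD5-AS1 (20.2 to 42.8), while the fold enrichment was 4.56, 3.16 and 3.43. The input at the summit stood at 1.28 times the genome-wide level for NC, 2.25 for ΔLINC00641 and 1.81 for ΔSETD5-AS1, so that the lower fold enrichment went with a higher input. Only 1 H3K27me3 peak lay in the flanks in each list.

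FXYD2, a small regulatory subunit of the sodium pump, had 2, 2 and 1 H3K27me3 peaks, and none was inside the gene. They lay downstream, at the start of DSCAML1, and the strongest in NC, chr11:117666655-117667602, had 36 fragments and a fold enrichment of 5.49. The strongest had 39 fragments and 5.73 in ΔLINC00641, and the single ΔSETD5-AS1 peak had 38 and 5.55. FXYD2 therefore counts through its flank alone. SLC12A3, the thiazide-sensitive cotransporter, had no peak of either mark, and the nearest H3K27me3 peak in NC was 674466 bp from its start. H3K9me3 in this segment was weak, with 1 peak downstream of CALB1 in NC (15 fragments), 1 in an intron of CALB1 in ΔLINC00662 (14 fragments) and 1 in an intron of KL in ΔLINC00662 (13 fragments).

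In principal cells of the collecting duct, 3 subunits form the epithelial sodium channel, and they were unlike each other. The SCNN1B and SCNN1G genes lie next to each other on chromosome 16, and both had an H3K27me3 promoter peak in every list. SCNN1A on chromosome 12 had no peak of either mark, with the nearest H3K27me3 peak 323814 bp away or farther. In SCNN1G (chr16:23194066-23228204) the strongest promoter peak was chr16:23194121-23195433 in NC, chr16:23193950-23195597 in ΔLINC00641 and chr16:23194050-23195433 in ΔSETD5-AS1. Its summit held 40 fragments in NC (interval 28.6 to 54.5), 56 in ΔLINC00641 (42.3 to 72.7) and 39 in ΔSETD5-AS1 (27.7 to 53.3). The fold enrichment was 4.45, 6.83 and 3.53, and the −log10 q-value 11.7, 26.0 and 8.26, the last of ΔLINC00641 being the largest at any kidney gene. The intervals of NC and ΔLINC00641 overlapped, which is no test of their difference, and the difference was not tested. SCNN1G coverage was 3.85%, 4.49% and 4.01%.

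In SCNN1B (chr16:23289552-23392615) the NC promoter peak, chr16:23312420-23314803, was 2384 bp wide. In ΔLINC00641 a pair of narrower promoter peaks lay at, chr16:23312994-23313568 and chr16:23313862-23314718, and in ΔSETD5-AS1 1 lay at chr16:23312919-23314405, all within the NC peak and covering 60.1% and 62.4% of it. The strongest summit held 38 fragments in NC (interval 26.9 to 52.2), 43 in ΔLINC00641 (31.1 to 57.9) and 39 in ΔSETD5-AS1 (27.7 to 53.3), with fold enrichments of 4.63, 5.13 and 4.16. In the flanking 500 kb on each side, 47, 42 and 52 peaks were counted around SCNN1B and 56, 49 and 60 around SCNN1G. The water channels AQP2 and AQP3, which act in the vasopressin-dependent and basolateral steps of water recovery, had no peak of either mark, and no principal cell gene had H3K9me3.

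**Figure D4:**
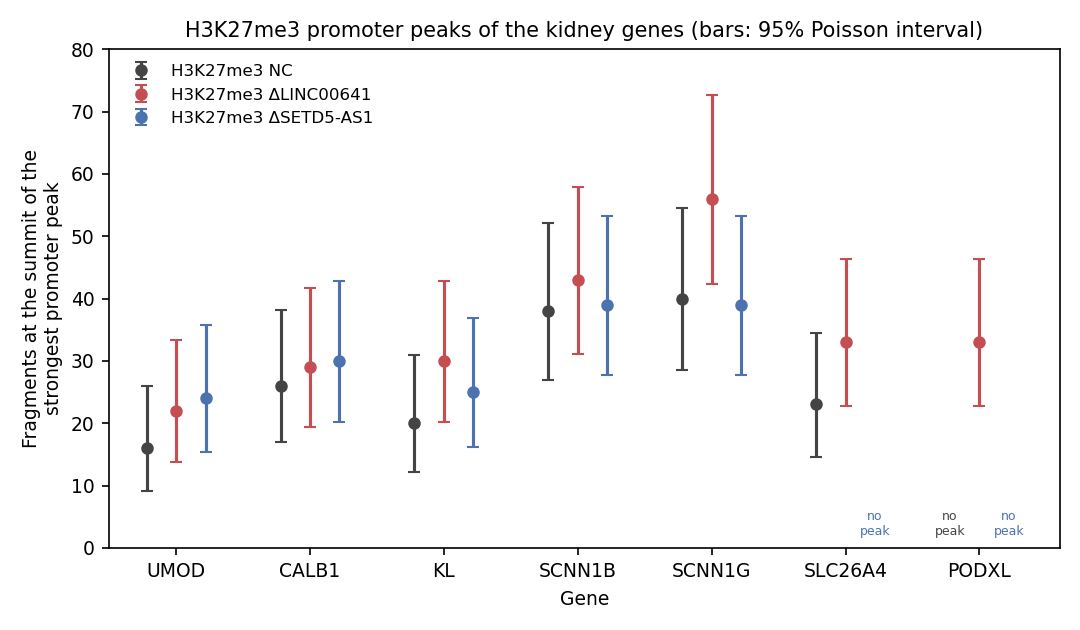
Points give the fragments at the summit of the strongest H3K27me3 promoter peak of 7 kidney genes in NC (grey), ΔLINC00641 (red) and ΔSETD5-AS1 (blue), with Poisson 95% intervals, on a linear axis from 0. SCNN1G in ΔLINC00641 is highest at 56, intervals overlap between the lists of each gene, and SLC26A4 and PODXL have lists without a peak.

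In intercalated cells, SLC26A4 (chr7:107301273-107358254), the bicarbonate and chloride exchanger pendrin, had an H3K27me3 promoter peak in NC and ΔLINC00641 and no peak in ΔSETD5-AS1. The peak was chr7:107300897-107301745 in NC and chr7:107300872-107302290 in ΔLINC00641, which contained all of it. Its summit held 23 fragments in NC (interval 14.6 to 34.5) and 33 in ΔLINC00641 (22.7 to 46.3), with fold enrichments of 2.86 and 3.27. The NC peak had a −log10 q of 3.64, below the NC median of 3.72 over all peaks on chromosomes 1 to 22. The NC promoter peak of UMOD had a −log10 q of 3.51 and that of KL 3.72. ATP6V0A4, a subunit of the proton pump, had 1 intronic H3K9me3 peak in each list, with 28 fragments in NC and 19 in ΔLINC00662. The proton pump subunit ATP6V1B1, the anion exchanger SLC4A1 and the water and anion channel AQP6 had no peak of either mark.

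Of the genes along the tubule, the kidney-specific cadherin CDH16 had none. PKHD1 (chr6:51480097-51952411, minus strand), a gene of 472 kb that encodes fibrocystin and is mutated in recessive polycystic kidney disease, held 35 of the 68 H3K27me3 peaks at kidney genes in NC, 44 of 76 in ΔLINC00641 and 46 of 85 in ΔSETD5-AS1. They covered 3.29%, 4.04% and 4.69% of the span. The peaks had a median width of 421, 348 and 440 bp, where the medians over all peaks were 516, 511 and 492 bp. They had a median of 16, 16 and 18 fragments at the summit, against 17, 18 and 19 over all peaks, and no summit above 22, 26 and 26. Most were intronic, at 32, 38 and 40, and 3, 6 and 5 were on coding exons. The nearest was 11600 bp from the start in NC. Counted in 4 equal stretches of the gene from the start, the NC peaks fell 13, 11, 6 and 5, those of ΔLINC00641 13, 16, 4 and 11, and those of ΔSETD5-AS1 12, 20, 7 and 7. Among the 489 protein-coding genes of at least 400 kb, 81, 65 and 74 had at least as many peaks as PKHD1, while the median of such genes was 1 peak in each list.

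The positions of the H3K27me3 peaks at PKHD1 differed between lists, as did their numbers of 35, 44 and 46. On chromosomes 1 to 22 the NC, ΔLINC00641 and ΔSETD5-AS1 lists held 73667, 58801 and 68848 peaks. Of the 15554 bp under NC peaks, 1733 bp were also under ΔLINC00641 peaks and 4075 bp under ΔSETD5-AS1 peaks, and 2 of 35 NC peaks were met in both knockdown lists. H3K9me3 had 10 peaks at PKHD1 in NC and 10 in ΔLINC00662, covering 1.15% and 1.13%, and 2782 bp were under both. The H3K9me3 median of genes of at least 400 kb was 12 and 8 peaks. In NC the marks shared 276 bp in PKHD1.

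Whether the marked genes had any peak upon depletion, at the same place or not, was asked gene by gene. Of the 12 kidney genes with H3K27me3 in NC, 11 also had a peak in ΔLINC00641 and 11 in ΔSETD5-AS1, where the shares over all genes marked in NC were 83.7% and 83.1%. SLC12A1 was missing from ΔLINC00641 and SLC26A4 from ΔSETD5-AS1. The counts include SLC5A1 in both knockdown lists and SLC12A1 in ΔSETD5-AS1, although none of their NC peaks was met there. Of the 6 with a promoter peak, 6 and 5 had one in the knockdown lists, against 84.0% and 79.9% over all genes. Of the 11 genes with H3K9me3 in NC, 5 had a peak in ΔLINC00662, CALB1 among them at another place, against 75.8% over all genes. The 6 that did not were NPHS1, WT1, SLC22A6, AQP1, LRP2 and SLC12A1, which had 1 peak each in NC except LRP2 with 2. The ΔLINC00662 list was also the smaller one, with 54588 peaks on chromosomes 1 to 22 against 75538 in NC, and its genome-wide level, the number of ChIP fragments expected at a base, was 3.50 against 4.29. The depth and the depletion cannot be told apart here.

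Peak by peak, 30 of the 68 H3K27me3 peaks at kidney genes in NC (44.1%, interval 33.0 to 55.9%) overlapped a ΔLINC00641 peak, where 51.6% of all NC peaks on chromosomes 1 to 22 did. Without PKHD1 it was 20 of 33 (60.6%, interval 43.7 to 75.3%), and at PKHD1 10 of 35 (28.6%, interval 16.3 to 45.05%). In ΔSETD5-AS1 34 of 68 were met (50%, interval 38.4 to 61.6%), where 55.0% of all NC peaks were, and 20 of 33 without PKHD1. For H3K9me3, 9 of 34 peaks were met in ΔLINC00662 (26.5%, interval 14.6 to 43.1%), against 38.0% of all NC peaks, and 4 of 24 without PKHD1. These intervals held the share of all peaks except that of PKHD1 in ΔLINC00641 and that of H3K9me3 without PKHD1 (6.68 to 35.9%). The intervals of this paragraph treat peaks as independent, although many share a gene. CUBN held 8 and SLC22A2 7 of the 24 H3K9me3 peaks. PKHD1 was also set apart after the data had been seen, so an interval that leaves out the share of all peaks is no test. By class of peak strength, weakest first, 24.0%, 29.0%, 39.1% and 62.0% of all NC H3K9me3 peaks were met in ΔLINC00662. At kidney genes 2 of 10, 2 of 12, 1 of 5 and 4 of 7 were met. Without PKHD1 the NC H3K9me3 peaks at kidney genes had a median −log10 q of 3.48, against 4.30 over all peaks. For H3K27me3 in NC it was 3.13 at PKHD1 and 4.26 at the other kidney genes, against 3.72. The comparisons with all peaks are not matched for strength. In the reverse direction, 39.5% of the 76 ΔLINC00641 peaks had a partner in NC (interval 29.3 to 50.7%), against 65.7% of all peaks of that list. The share was 37.6% of the 85 ΔSETD5-AS1 peaks (28.1 to 48.3%), against 60.5%, and 37.5% of the 24 ΔLINC00662 peaks (21.2 to 57.3%), against 55.3%. Both H3K27me3 intervals lay below the share of all peaks. Without PKHD1 the shares were 62.5% (45.25 to 77.1%), 46.2% (31.6 to 61.4%) and 28.6% (11.7 to 54.65%), and of these only the ΔLINC00662 interval lay below the share of all peaks. The ΔLINC00662 peaks without PKHD1 had a median −log10 q of 2.77, against 3.86 over that list. Those of ΔLINC00641 had 5.79 against 3.85, and those of ΔSETD5-AS1 4.06 against 3.55.

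Where peaks overlapped 1 to 1, fold enrichment at kidney genes was compared as a log2 ratio of the knockdown list to NC. For ΔLINC00641 its median was 0.18 over 21 pairs, of which 6 were lower in ΔLINC00641, and 0.01 over all pairs on chromosomes 1 to 22. Without PKHD1 it was 0.06 over 11 pairs. The median for ΔSETD5-AS1 was -0.03 over 28 pairs, 15 of them lower, against -0.08 over all pairs, and for ΔLINC00662 0.04 over 9 pairs, 4 of them lower, against 0.03. Without PKHD1 the medians were -0.12 over 14 pairs and 0.33 over 4 pairs, and at PKHD1 alone the ΔLINC00662 median was -0.18 over 5 pairs. These ratios describe pooled lists of unequal depth.

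The kidney genes were also set beside related lists. Of 40 other nephron genes, 7 had H3K27me3 in NC (17.5%, interval 8.75 to 31.95%), against 14.6% of all genes. A promoter peak was present at 2 of them (5%), PVALB among them, against 7.09%. TRPV5 and TRPV6, the calcium channels of the distal tubule, had 7 and 3 peaks. SLC2A9, a urate transporter, had 22. Of 30 regulators of kidney development, 11 had H3K27me3 in NC (36.7%, interval 21.9 to 54.5%) and 6 had a promoter peak, among them PAX2, RET, WNT4 and FOXC2. H3K9me3 was found in NC at 15 of 40 (37.5%) and 12 of 30 (40%), against 38.1% of all genes. The interval of the 34 kidney genes overlapped that of each list.

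The 19 kidney genes without H3K27me3 in any list lay between 16.4 kb (KCNJ1) and 949 kb (ATP6V0A4) from the nearest H3K27me3 peak, with a median of 226 kb, and 11 lay farther than 100 kb. Such genes made up 55.9% of the kidney genes and 81.3% of all genes. The 22 without H3K9me3 lay 8.28 to 317 kb from the nearest H3K9me3 peak. In all, 15 kidney genes had neither mark in any list (44.1%), where 51.6% of all protein-coding genes had none. The surroundings of the genes with an H3K27me3 promoter peak differed widely. CALB1, KL and SLC26A4 had at most 1 peak within 500 kb in NC, which held for 13.7% of all genes with a promoter peak, whereas SCNN1B, SCNN1G and UMOD had 47 to 156. PODXL, marked in ΔLINC00641 alone, had 15 in that list and 12 in NC.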

How the data were processed

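ChIP-seq of H3K27me3 and H3K9me3 in HEK293T cells was grouped by sample title into 10 groups of 3 replicates (30 samples, 5 ChIP and 5 input groups). Per the submitters' processing notes and the study's methods, adapters were removed by the authors with cutadapt 3.3, reads were mapped onto hg19 using Bowtie2 2.4.2, GATK removed duplicates, replicates were merged, and MACS2 2.2.7.1 called peaks against merged input. The authors deposited for each peak a fold enrichment, the ratio of fragments at the summit to local input, each with a pseudocount, and a −log10 p-value and −log10 q-value. The deposited score column, a scaled −log10 q, was not used. Fragments at the summit and the local input level were solved from the fold enrichment and the −log10 p-value; 100% of peaks gave a whole number within 0.05, and the recovery was tested on simulated data. The genome-wide level was 3.85, 3.78 and 4.43 fragments for H3K27me3 in NC, ΔLINC00641 and ΔSETD5-AS1, and 4.29 and 3.50 for H3K9me3 in NC and ΔLINC00662. The median summit at kidney genes held 17 to 20.5 fragments, so single peaks are imprecise.

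Genes were taken from GENCODE 44 lifted to GRCh37, which shares its main chromosome coordinates with hg19. Start sites are those of the canonical transcript. An NC peak counted as retained if 1 bp or more of it lay under any knockdown peak. Shares have Wilson and fragments Poisson 95% intervals. The members and lists were chosen with earlier results of these data known. Full values are given for genes with a promoter peak in any list and for the 5 genes with the largest coverage of a mark in NC, and the others by counts and ranges. A few values of single peaks beyond that rule were chosen after they were seen. The other settings tried were peaks with −log10 q ≥ 5, no flank, input-rich peaks left out (over 5 times the genome-wide level), equal numbers of the strongest peaks, other start site definitions and an overlap of 50%. The canonical span and leaving out PKHD1 were added after the data had been seen. Some genes and start site sequences are not reported here. The scripts ran in Python 3.11.15 with pandas 2.3.3, numpy 2.4.6, pysam 0.24.0 and scipy 1.17.1, and the genome was indexed by samtools 1.23.1.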

Additional observations from a re-analysis of the deposited data

How the results depend on the processing

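Of 65 alternatives to 13 results, 54 stayed within 1.5 times the count, or within the interval of the share, and 11 moved. Some of the 54 could not move. No peak at a kidney gene was input-rich, with the local input at most 3.64 times the genome-wide level, so that setting changed no value. H3K9me3 promoter counts of 0 could not fall at −log10 q ≥ 5 or with equal numbers. Counts in ΔLINC00662, the shortest list, could not change with equal numbers. Among peaks with −log10 q ≥ 5, promoter peaks of H3K27me3 in NC were left at 3 genes, any peak at 8 genes in ΔSETD5-AS1, and H3K9me3 at 5 genes in NC and 3 in ΔLINC00662. With equal numbers of the strongest peaks, H3K9me3 in NC was found at 7 genes. An H3K9me3 promoter peak in NC was found at 1 gene, WT1, with any coding start site, against 6.77% of all genes. Within 2.5 kb of the start site it was again found at WT1 alone, against 7.78% of all genes. The share of H3K27me3 peaks retained in ΔLINC00641 was 27.9% with an overlap of at least 50%, 60% at −log10 q ≥ 5 and 60.6% without PKHD1. The H3K9me3 share retained in ΔLINC00662 was 10% at −log10 q ≥ 5. Fewer peaks, or fewer shared bases, enter by construction under the stricter settings. The shares over all genes or all peaks are not given here for −log10 q ≥ 5, equal numbers or an overlap of 50%. The counts and shares at those settings therefore have no background. No paired analysis was possible because the only values used here are lists that pool their replicates, and for the same reason none of the replicates could be left out in turn. Many peaks of PKHD1, SLC5A1, SLC12A1 and CUBN rest on 20 fragments or fewer at the summit.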
